A study of Homo sapiens with 23 samples.

Results

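HLA class I molecules were described here through 9 genes of their heavy chains, light chain, regulation and assembly, which were HLA-B, HLA-C, HLA-E, HLA-F, B2M, NLRC5, TAP1, TAP2 and TAPBP. They were taken by exact gene symbol from a table of 35438 genes, all 9 were found, and all 9 were among the 15657 genes that passed the filter on low values. Poly(A) RNA had been sequenced from WM989 A6-G3, a BRAF-mutant human melanoma cell line that descends from a single cell, and from 7 drug-resistant clones of it. Clones 7, 8 and 9 came from single colonies that had grown out under vemurafenib, which blocks mutant BRAF, and 1 µM of the drug stayed in their medium. Clones 10, 11, 12 and 13 came from colonies that had grown out under dabrafenib, another BRAF inhibitor, together with the MEK inhibitor trametinib, and their medium held 250 nM and 2.5 nM of these drugs. The untreated cells were the parental line in medium with no drug. The genotype is labelled WT in every group. There were 3 libraries for the untreated cells and for every clone apart from clone 11, which had 2. Each clone stands for 1 colony, and resistance and the presence of drug cannot be told apart in this design. Levels are given as TPM, shares of all transcripts that are adjusted for transcript length, which were scaled further between libraries.

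Class I molecules carry peptides from inside the cell to its surface, where CD8 T cells read them. A heavy chain, encoded by HLA-B, HLA-C or another class I gene, pairs with the light chain beta-2-microglobulin from B2M. HLA-E and HLA-F are non-classical heavy chains that are read mainly by receptors of natural killer cells. Peptides are cut by the proteasome, pumped into the endoplasmic reticulum by the TAP1 and TAP2 heterodimer, and loaded with the help of tapasin from TAPBP. NLRC5 is a transactivator that is recruited with RFX, CREB and NF-Y factors to class I promoters, and interferon signaling induces both NLRC5 and its targets. Melanoma cells are known for low and variable class I levels, which bear on recognition by T cells.

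The promoters of the members are shown because most of these genes were called higher in the mean of the clones and TAP2 and TAPBP were not. RefSeq promoter windows on GRCh38.p14, from 250 bases before to 50 bases after the annotated start, were at hand for 7 of the 9 members, with HLA-E and NLRC5 not matched. The searched motifs, on both strands, were the interferon-stimulated response element (GAAA, any 2 bases, GAAA), the NF-kappa-B motif (GGGA, any base, TT, any base, CC), the cyclic AMP response element core TGACG, the CCAAT box CCAAT and the gamma-activated site TTCNNNGAA. Overlapping matches were counted separately, and capitals below mark every match. The windows lie at chr6:31357130-31357429, minus strand for HLA-B, chr6:31272043-31272342, minus strand for HLA-C, chr6:29723184-29723483, plus strand for HLA-F, chr15:44711267-44711566, plus strand for B2M, chr6:32853655-32853954, minus strand for TAP1, chr6:32838690-32838989, minus strand for TAP2 and chr6:33314029-33314328, minus strand for TAPBP. Each is written from 5′ to 3′ on the strand of its gene.
HLA-B: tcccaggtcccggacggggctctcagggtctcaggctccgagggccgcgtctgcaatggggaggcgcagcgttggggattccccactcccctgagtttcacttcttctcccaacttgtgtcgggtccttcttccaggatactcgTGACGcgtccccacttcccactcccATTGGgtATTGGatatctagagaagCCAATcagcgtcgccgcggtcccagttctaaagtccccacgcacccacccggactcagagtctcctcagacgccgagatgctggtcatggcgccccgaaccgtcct
HLA-C: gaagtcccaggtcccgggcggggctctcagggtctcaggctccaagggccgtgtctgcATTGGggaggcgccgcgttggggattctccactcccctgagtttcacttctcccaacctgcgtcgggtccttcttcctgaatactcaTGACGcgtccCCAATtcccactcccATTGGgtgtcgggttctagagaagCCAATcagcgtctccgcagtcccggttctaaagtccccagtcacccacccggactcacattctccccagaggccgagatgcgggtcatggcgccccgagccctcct
HLA-F: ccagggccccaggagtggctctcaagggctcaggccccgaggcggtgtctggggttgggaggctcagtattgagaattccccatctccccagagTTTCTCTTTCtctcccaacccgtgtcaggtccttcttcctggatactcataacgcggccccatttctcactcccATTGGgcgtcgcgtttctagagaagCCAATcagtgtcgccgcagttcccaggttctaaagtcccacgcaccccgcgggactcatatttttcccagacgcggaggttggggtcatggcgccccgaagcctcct
B2M: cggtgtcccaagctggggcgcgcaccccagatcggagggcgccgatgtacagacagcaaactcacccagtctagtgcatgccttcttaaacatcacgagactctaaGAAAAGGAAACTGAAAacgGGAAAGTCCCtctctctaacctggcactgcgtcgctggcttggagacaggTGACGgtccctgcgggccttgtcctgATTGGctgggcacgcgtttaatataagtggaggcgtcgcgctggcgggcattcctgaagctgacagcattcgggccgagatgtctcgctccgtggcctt
TAP1: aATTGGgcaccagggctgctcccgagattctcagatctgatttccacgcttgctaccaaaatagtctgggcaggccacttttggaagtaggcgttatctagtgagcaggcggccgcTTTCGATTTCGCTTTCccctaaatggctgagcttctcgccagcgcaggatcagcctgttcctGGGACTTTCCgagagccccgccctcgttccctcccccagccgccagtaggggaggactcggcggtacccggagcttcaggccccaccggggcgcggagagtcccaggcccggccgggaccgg
TAP2: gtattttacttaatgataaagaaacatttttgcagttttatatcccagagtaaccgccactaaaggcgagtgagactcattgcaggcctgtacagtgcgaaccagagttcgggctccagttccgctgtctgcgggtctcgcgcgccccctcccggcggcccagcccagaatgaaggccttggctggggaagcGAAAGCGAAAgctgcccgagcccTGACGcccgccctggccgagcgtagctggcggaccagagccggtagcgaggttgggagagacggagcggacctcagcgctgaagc
TAPBP: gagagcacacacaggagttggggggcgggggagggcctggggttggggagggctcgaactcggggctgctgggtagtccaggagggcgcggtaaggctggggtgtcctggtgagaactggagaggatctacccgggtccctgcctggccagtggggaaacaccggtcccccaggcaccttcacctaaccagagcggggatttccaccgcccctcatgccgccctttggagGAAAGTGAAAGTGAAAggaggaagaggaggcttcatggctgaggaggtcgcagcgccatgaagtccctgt

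The interferon-stimulated response element was matched in HLA-F and TAP2 at 1 place and in TAP1, TAPBP and B2M at 2 overlapping places, and it was present in 3.57% of the 35116 promoter windows of the same length. HLA-B and HLA-C held no match to these letters, but both hold the near form tttcacttct, which was not counted. Only exact matches were counted for every motif, so a window without a match may still hold a variant of it. TAP1 and B2M matched the NF-kappa-B letters, as did 1.4% of all windows. The near forms gggattcccc in HLA-B and gggattctcc in HLA-C do not match these letters and were not counted. The TGACG core was matched in HLA-B, HLA-C, TAP2 and B2M and in 24.6% of all windows, and it began 106 bases before the start in HLA-B and 105 bases before it in HLA-C. CCAAT was matched at 4 places in HLA-C, 3 in HLA-B, 2 in HLA-F, and 1 each in TAP1 and B2M, and in 34.6% of all windows. TAP1 had another annotated start, whose window at chr6:32852712-32853011, minus strand, is not printed and held the only match to the gamma-activated site, a motif present in 7.66% of all windows. The interferon letters were matched in TAP1, B2M and HLA-F, called higher in the mean of the clones, and in TAP2 and TAPBP, which were not called. TAPBP missed only the fold minimum there and was called in clone 9 alone. Whether any of these motifs bears on the RNA levels was not tested.

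Between 14415 and 24039 genes had a value above 0 in a library, and clone 10 replicate 1 was lowest, since the next held 18671. All 7 melanocyte lineage markers fell in the clones, to summed levels of 22.1 to 467 TPM, against 11967 to 12333 TPM in untreated libraries. All 6 fibroblast markers were higher, with sums of 2116 to 7602 TPM in clones, against 59.2 to 68.8 TPM in untreated libraries. Immune markers summed to 154 to 751 TPM in clones, against 169 to 170.4 TPM in untreated libraries, nearly all of it CD68, with CD68 and CSF1R called higher and FCER1G lower of 4 tested, and CD3E, CD14, ITGAM and NKG7 stayed below 1 TPM in every library. Endothelial markers summed to at most 5.43 TPM in clones and 1.66 TPM in untreated libraries, and 0 of 3 tested were called by limma. All 3 had an adjusted p under 0.05 and missed only the fold minimum, with VWF at 0.95, PECAM1 at 0.68 and TIE1 at -0.53 on the log2 scale. Singly, VWF was called higher in 3 clones and PECAM1 in 1. Beside these counts, 10.9% of all genes tested were called higher in the mean of the clones and 7.91% lower. The part of the markers in the class I results was not tested, and in bulk RNA fewer cells of a type and less RNA per cell cannot be told apart.

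The clones were first compared with the untreated parent to ask which class I genes differ in resistant cells. Of the 9 members, 7 were called higher in the mean of the 7 clones and none lower, where 10.9% of all genes tested were called higher and 7.91% lower. A gene was called where the Benjamini-Hochberg adjusted p was under 0.05 and the log2 fold change was 1 or more in size. The SE and p of the mean of the clones rest on the spread between libraries within groups. They leave out the spread between clones, so they hold for these clones only. The 7 members called higher were HLA-B, NLRC5, HLA-F, HLA-C, B2M, TAP1 and HLA-E, in falling order of fold change. In each of them all 20 clone libraries lay above all 3 untreated libraries, as in 14.5% of genes tested. The median log2 fold change of the 9 members was 2.15, against -0.01 over all genes tested. TAP2 and TAPBP were not called. Together the 9 genes held 0.467% to 1.32% of all deposited TPM in clone libraries, against 0.146% to 0.150% in untreated libraries.

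**Figure D1:**
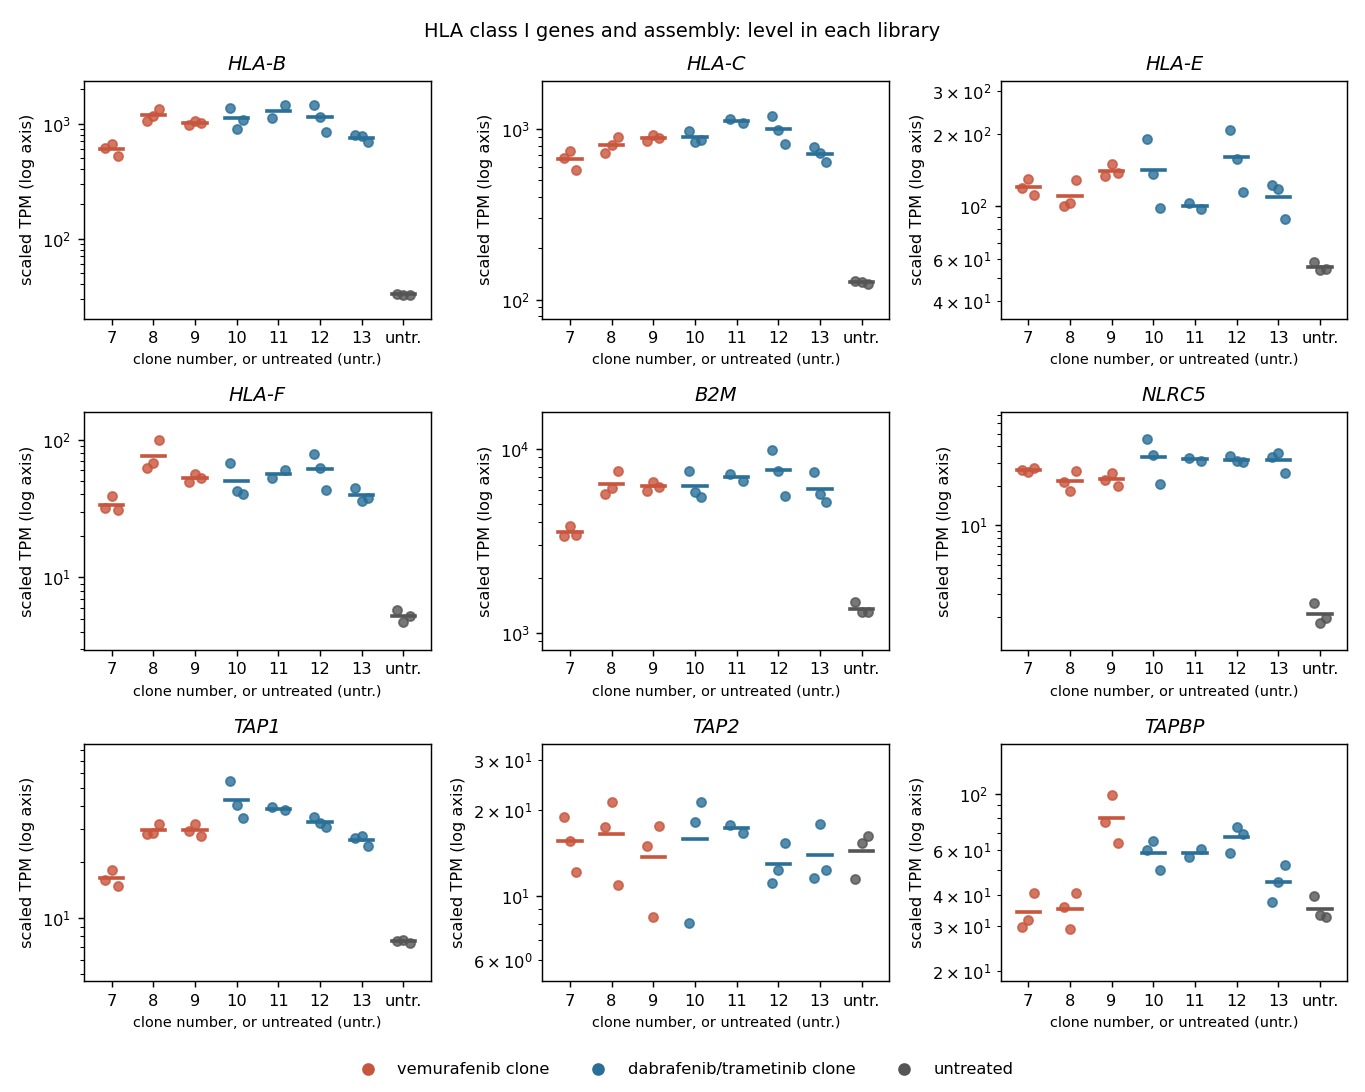
Scaled TPM (log axis) of each of the 9 genes in every library, by clone and in untreated cells on the right; points are libraries and bars are group means. The 20 clone libraries sit above the 3 untreated libraries in 7 panels, while TAP2 and TAPBP overlap.

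HLA-B, a classical heavy chain that presents peptides to CD8 T cells, had the largest change of the members. It stood at 615, 666 and 525 TPM in clone 7, at 1052, 1164 and 1349.8 TPM in clone 8 and at 969.6, 1045 and 1002 TPM in clone 9. It stood at 1360.3, 899 and 1067 TPM in clone 10, at 1115 and 1464 TPM in clone 11, at 1457, 1143 and 849 TPM in clone 12 and at 794, 787 and 687 TPM in clone 13. The untreated libraries held 33.2, 32.2 and 32.5 TPM. No clone library was below 525 TPM and no untreated library above 33.2 TPM, so the groups were far apart, with clone 7 and clone 13 lowest among the clones. Clone means were 18.5 to 39.5 times the untreated mean (log2 fold change of 4.86 with SE 0.13, adjusted p = 2.39e-16). By level, HLA-B was the 154th highest of 35438 genes in the clones and the 3765th in untreated cells.

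HLA-C, the other classical heavy chain of the set, read by both T cells and natural killer cells, had a higher level in untreated cells and a smaller fold change. It had clone means of 663 to 1118 TPM, against 126 ± 2.35 TPM in untreated cells (SD, n = 3). Single clone libraries ran from 576 to 1194 TPM and untreated libraries from 124 to 128 TPM, with no overlap (log2 fold change of 2.75 with SE 0.10, adjusted p = 1.4e-14). The balance of the classical heavy chains turned round: HLA-B was 0.902 to 1.51 times HLA-C in clone libraries, with a median of 1.14, against 0.258 ± 0.00412 times in untreated cells (SD, n = 3). HLA-B exceeded HLA-C in 16 of 20 clone libraries and in 0 of 3 untreated libraries. The ratio was highest in clone 8, at 1.47 ± 0.0358, and lowest in clone 7, at 0.908 ± 0.00568 (SD, n = 3 each). The transcripts of these genes share sequence: 21.9% of the 37-base words of HLA-B transcripts in GENCODE release 29, and 11.9% of those of HLA-C, also occur in transcripts of another gene. HLA-B shared 15.8% of its words with the antisense gene AL671883.2 and 5.59% with HLA-C, and reads from such words cannot be given to 1 gene with certainty. Neither the labels nor the table state which class I alleles the cell line carries, and levels estimated on reference transcripts may depend on how far the alleles differ from these, so the single HLA levels, their ratios and their shares are uncertain for that too.

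HLA-F, a non-classical heavy chain of low abundance, had clone means of 33.8 to 76.2 TPM, against 5.27 ± 0.539 TPM in untreated cells (SD, n = 3). All clone libraries, from 30.7 to 98.9 TPM, were above the untreated libraries, from 4.76 to 5.83 TPM (log2 fold change of 3.05 with SE 0.16, adjusted p = 4.23e-12). Clone 8 was highest and clone 7 lowest. Of its 37-base words 24.1% were shared, most with the antisense genes AL645939.1 and HLA-F-AS1, and whether strand was used in the estimation is not stated, so its level is uncertain to that extent.

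HLA-E, which presents leader peptides of other class I chains to natural killer receptors, rose least of the heavy chains. It stood at 119, 129 and 110.2 TPM in clone 7, at 99.2, 103 and 128 TPM in clone 8 and at 133, 149 and 136 TPM in clone 9. It stood at 189.7, 136 and 98.2 TPM in clone 10, at 102 and 96.7 TPM in clone 11, at 207, 157 and 114 TPM in clone 12 and at 122, 117 and 87.7 TPM in clone 13. In untreated libraries it had 57.8, 54.0 and 54.4 TPM. All clone libraries were above the untreated ones, and the libraries of clones 10 and 12 spread most. The mean of the clones was called (log2 fold change of 1.13 with SE 0.16, adjusted p = 4.56e-06). Singly, clones 7, 9, 10 and 12 were called, with log2 fold changes of 1.09 to 1.47, while clones 8, 11 and 13 had 0.97, 0.83 and 0.95 and stayed under the fold minimum with adjusted p-values of 0.00605 or lower.

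Among the summed levels of the 4 heavy chain genes, HLA-B made up 42.3% to 54.7% in clone libraries, against 14.7% to 15.0% in untreated libraries. HLA-C made up 36.1% to 47.5% in clone libraries, against 57.0% to 58.2% in untreated libraries. HLA-E made up 3.57% to 8.87% in clone libraries, against 24.8% to 25.7% in untreated libraries. The summed RNA of these genes was thus led by HLA-B and HLA-C together in clones and by HLA-C in untreated cells, with the HLA-E share several times smaller in clones.

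B2M, the light chain that pairs with class I heavy chains, was the most abundant member in every group. It stood at 3379.8, 3831 and 3412 TPM in clone 7, at 5679.6, 6107 and 7627 TPM in clone 8 and at 5942, 6605 and 6242 TPM in clone 9. It stood at 7633, 5828 and 5455 TPM in clone 10, at 7304 and 6729 TPM in clone 11, at 9899, 7611 and 5531 TPM in clone 12 and at 7451, 5708 and 5118 TPM in clone 13. The untreated libraries held 1465, 1304 and 1294 TPM. All 3 libraries of clone 7 were below every library of the other clones and above every untreated library. Clone means were 2.61 to 5.67 times the untreated mean (log2 fold change of 2.15 with SE 0.15, adjusted p = 3.62e-10), and B2M was the 18th highest gene by level in the clones and the 121st in untreated cells. B2M was 2.35 to 4.28 times the sum of the 4 heavy chain genes in clone libraries, against 5.98 to 6.50 times in untreated libraries. The light chain thus stayed in excess of these 4 heavy chains in all 23 libraries.

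**Figure D2:**
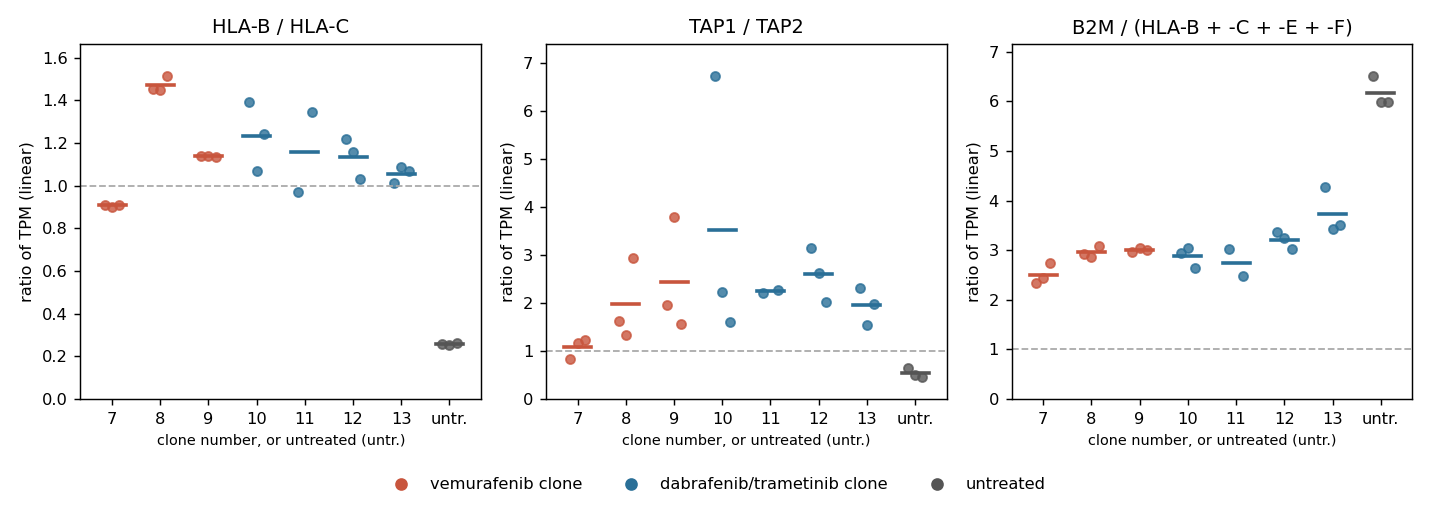
Linear ratios of TPM in every library for HLA-B over HLA-C, TAP1 over TAP2 and B2M over the sum of HLA-B, HLA-C, HLA-E and HLA-F; points are libraries, bars are group means, and the dashed line marks a ratio of 1. The first and the second ratio are higher in all 20 clone libraries than in untreated libraries, and the third is lower in all 20.

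NLRC5, the class I transactivator, was low in untreated cells. It stood at 26.6, 25.7 and 27.3 TPM in clone 7, at 21.6, 18.2 and 25.9 TPM in clone 8 and at 22.2, 25.3 and 19.9 TPM in clone 9. It stood at 45.6, 34.2 and 20.7 TPM in clone 10, at 32.7 and 31.2 TPM in clone 11, at 33.7, 30.8 and 30.6 TPM in clone 12 and at 33.1, 35.8 and 25.2 TPM in clone 13. Untreated libraries showed 2.55, 1.80 and 1.96 TPM. No clone library was below 18.2 TPM and no untreated library above 2.55 TPM. Clone means were 10.4 to 15.9 times the untreated mean (log2 fold change of 3.22 with SE 0.15, adjusted p = 9.82e-13). The highest value, in clone 10 replicate 1, belongs to the library with the fewest genes above 0; without that library all 7 clones remained called for NLRC5.

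TAP1, a subunit of the peptide transporter, rose while TAP2, its partner, was not called. TAP1 stood at 16.0, 18.2 and 14.9 TPM in clone 7, at 28.5, 28.7 and 32.2 TPM in clone 8 and at 29.6, 32.2 and 27.6 TPM in clone 9. It stood at 54.3, 40.7 and 34.5 TPM in clone 10, at 39.5 and 38.1 TPM in clone 11, at 35.2, 32.5 and 31.1 TPM in clone 12 and at 26.9, 27.8 and 24.6 TPM in clone 13. The untreated libraries held 7.52, 7.66 and 7.36 TPM. Clone 7 was nearest to the untreated cells, and clone 10 was highest. Clone means were 2.18 to 5.75 times the untreated mean (log2 fold change of 1.85 with SE 0.10, adjusted p = 3.42e-12). The call of clone 7 alone (log2 fold change 1.03) was lost without its replicate 2, at 0.95. Of its words 12.5% were shared, most with the antisense gene PSMB8-AS1.

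TAP2 stood at 19.0, 15.6 and 12.1 TPM in clone 7, at 17.4, 21.3 and 10.9 TPM in clone 8 and at 15.0, 8.48 and 17.7 TPM in clone 9. It stood at 8.08, 18.2 and 21.4 TPM in clone 10, at 17.8 and 16.7 TPM in clone 11, at 11.1, 12.4 and 15.3 TPM in clone 12 and at 11.6, 17.9 and 12.4 TPM in clone 13. Its untreated values were 11.5, 15.3 and 16.2 TPM. The groups overlapped, since 9 clone libraries were above all untreated libraries and 4 were below all of them. The difference of the means was 0.04 (SE 0.24, 95% interval -0.45 to 0.54, adjusted p = 0.895), and no single clone was called, with log2 fold changes of -0.13 to 0.26. TAP1 was 0.846 to 6.73 times TAP2 in clone libraries, above 1 in 19 of 20, against 0.454 to 0.655 times in untreated libraries. All of the shared words of TAP2, 31.6% of its total, are shared with the overlapping gene AL669918.1, and the highest ratio came from clone 10 replicate 1, where TAP2 was lowest. Without that library the TAP1 call of clone 10 remained, at a log2 fold change of 2.19.

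TAPBP, which encodes tapasin, the protein that holds empty heavy chains next to the transporter, divided the clones. It stood at 29.7, 31.7 and 40.6 TPM in clone 7, at 35.7, 29.2 and 40.5 TPM in clone 8 and at 77.7, 98.6 and 63.9 TPM in clone 9. It stood at 59.9, 64.9 and 49.9 TPM in clone 10, at 56.0 and 60.5 TPM in clone 11, at 58.6, 73.6 and 69.5 TPM in clone 12 and at 37.3, 45.0 and 52.6 TPM in clone 13. Untreated cells had 39.4, 33.2 and 32.7 TPM. Clones 7 and 8 overlapped the untreated libraries, clone 13 had 1 library below the highest untreated one, and clones 9 to 12 lay above. The mean of the clones passed the adjusted p but not the fold minimum (log2 fold change of 0.54 with SE 0.13, adjusted p = 0.00152). Clone 9 was the only clone called (log2 fold change of 1.15 with SE 0.17, adjusted p = 1.48e-05), and its fold change was 0.99 without its replicate 2, just under the minimum.

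Clone by clone, 8 members were called higher in clone 9, where 11.5% of genes tested were called higher. In clones 7, 10 and 12 it was 7 members, beside 11%, 11.8% and 11.5% of genes tested. In clones 8, 11 and 13 it was 6 members, beside 11%, 11.7% and 12.3% of genes tested. HLA-B, HLA-C, HLA-F, B2M, NLRC5 and TAP1 were the 6 of 9 called in all 7 clones, as were 4.87% of genes tested; these comparisons share the 3 untreated libraries. Of 63 pairs of member and clone, 47 were called.

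**Figure D3:**
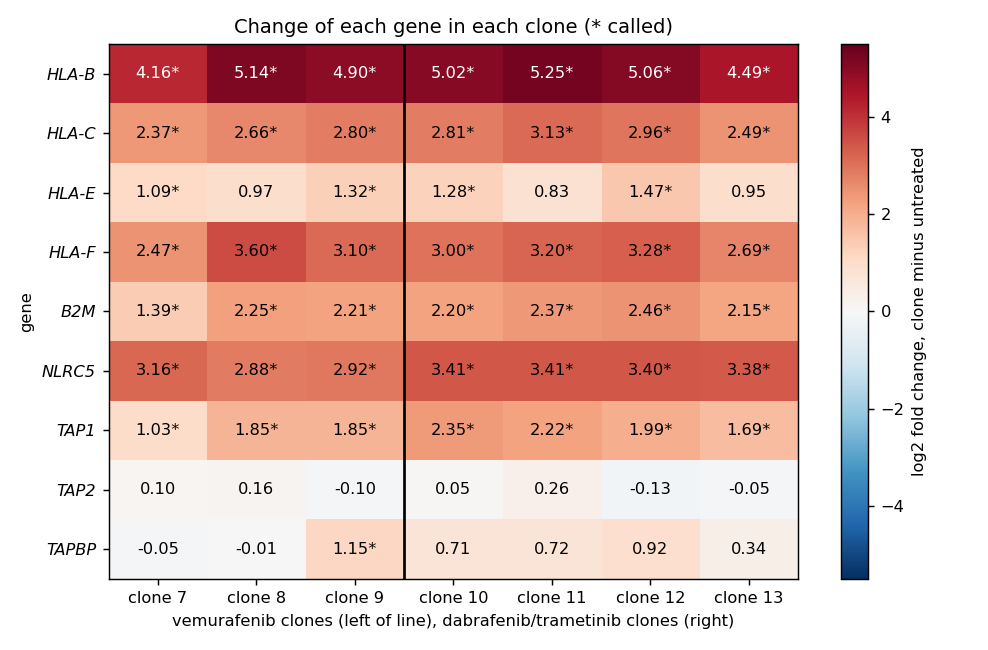
Log2 fold change of each gene in each clone against untreated cells, on the log2(scaled TPM + 1) scale, with an asterisk on called values; columns left of the line are vemurafenib clones and right of it dabrafenib/trametinib clones. HLA-B is darkest in all clones, from 4.16 to 5.25, and TAP2 is close to 0 throughout.

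The series asks how resistant clones of 1 parental line differ, so the 7 clones were compared with each other. An F test across the clones, which also needed a range of 1 or more, called 5 of 9 members, beside 25.3% of genes tested. They were TAP1 (range 1.33, adjusted p = 2.48e-06), TAPBP (range 1.20, adjusted p = 3.87e-05), HLA-F (range 1.13, adjusted p = 0.00315), HLA-B (range 1.09, adjusted p = 0.000423) and B2M (range 1.08, adjusted p = 0.0036), where the range is the difference between the highest and lowest clone mean on the log2 scale. HLA-C passed the p alone (range 0.76, adjusted p = 0.00183). HLA-E (range 0.64, adjusted p = 0.12), NLRC5 (range 0.54, adjusted p = 0.0772) and TAP2 (range 0.40, adjusted p = 0.894) passed neither. The calls of HLA-B, HLA-F and B2M rested on single libraries: the range fell to 0.98 without clone 11 replicate 3 and to 0.996 without clone 7 replicate 3 for HLA-B, to 0.93 without clone 8 replicate 3 for HLA-F and to 0.99 without clone 12 replicate 1 for B2M.

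Clone 7 had the lowest mean of the clones for 6 of 9 members, which were HLA-B, HLA-C, HLA-F, B2M, TAP1 and TAPBP. TAP1 averaged 43.2 ± 10.1 TPM in clone 10 and 38.8 ± 1.00 TPM in clone 11, against 16.4 ± 1.69 TPM in clone 7 (SD, n = 3, 2 and 3). B2M averaged 7680.3 ± 2185 TPM in clone 12, against 3541 ± 252 TPM in clone 7 (SD, n = 3 each). Of 189 combinations of member and clone pair 7 were called, beside 6.16% of all such combinations over the genes tested, and 6 of the 7 involved clone 7. These were TAP1 in clone 10 (1.33 on the log2 scale) and clone 11 (1.20), TAPBP in clone 9 (1.20), HLA-F in clone 8 (1.13), HLA-B in clone 11 (1.09) and B2M in clone 12 (1.08), each minus clone 7. The background of these pairs was 10.8% of genes tested for clone 10, 7.84% for clone 11, 4.91% for clone 9, 3.68% for clone 8 and 5.16% for clone 12, each against clone 7. The other call was TAPBP in clone 9 minus clone 8 (1.16), a pair with 5.05% of genes called.

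With clone 7 not used, a comparison added after the data had been seen, TAPBP alone stayed called among the other 6 clones (range 1.16, adjusted p = 0.000395), beside 22.6% of genes tested. TAP1 (range 0.67, adjusted p = 0.00381), HLA-C (range 0.64, adjusted p = 0.0138), HLA-B (range 0.76, adjusted p = 0.0335) and HLA-F (range 0.91, adjusted p = 0.0377) passed the adjusted p of the F test but not the range. The B2M range was 0.31 (adjusted p = 0.733). Summed melanocyte lineage markers averaged 379 ± 13.5 TPM in clone 7 (SD, n = 3), against means of 29.2 to 280 TPM in the other clones and 12099 ± 204 TPM in untreated cells (SD, n = 3). Clone 7 was highest by its mean only, since the libraries of clone 12 ran from 58.9 to 467 TPM and those of clone 10 from 73.8 to 378 TPM, beside 367 to 393 TPM in clone 7; the part of this in its class I levels was not tested. In the order of levels, clone 7 was followed from below by clone 13 for HLA-B, HLA-C, HLA-F, B2M and TAP1. The step between these neighbours, clone 13 minus clone 7, was 0.77 for B2M (adjusted p = 0.0124) and 0.66 for TAP1 (adjusted p = 0.00118), under the fold minimum. For every member, no neighbouring clones in the order of levels were called apart, and for HLA-B, HLA-C, HLA-F, B2M, NLRC5 and TAP1 the lowest clone was called above the untreated cells.

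Across the 7 clone means, HLA-B ran with HLA-F (Pearson r 0.893), TAP1 (0.880), B2M (0.869) and HLA-C (0.868). NLRC5 had an r of 0.043 with HLA-B and of 0.358 with TAP1. These are descriptions over 7 clones that share the scaling and the fit. NLRC5 did not pass the F test across clones (range 0.54, adjusted p = 0.0772), so its low r values do not show that it varies apart from the others. Clone 7 was lowest for HLA-B, HLA-C, HLA-F, B2M and TAP1, which can raise the r values among them. Of 11223 other genes, those whose clone means were most like HLA-B were RICTOR (r 0.985), TNFRSF21 (0.954) and CTD-2054N24.2 (0.948). For B2M they were YIPF4 (0.969), ARL6IP6 (0.958) and CASC5 (0.956), and for NLRC5 they were GLUL (0.989), ERLIN2 (0.979) and TMEM55A (0.977). None of these is a gene of the antigen processing lists used here, but the lists are small beside 11223 genes, so this absence carries no meaning. The highest r of so many genes over 7 clones can be high without a link.

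The drug arms were compared with the clone as the unit, 3 vemurafenib clones against 4 dabrafenib/trametinib clones. No member was called by limma, and neither were most genes, since 0.0128% of genes tested were called in either direction. At an unadjusted p under 0.05 there was 1 member, NLRC5, beside 14.4% of genes tested. NLRC5 averaged 21.9 to 26.5 TPM in the vemurafenib clones and 31.4 to 33.5 TPM in the dabrafenib/trametinib clones, the only member whose clone means did not overlap between arms, as in 14.3% of genes tested. Its difference, vemurafenib minus dabrafenib/trametinib, was -0.42 (SE 0.11, 95% interval -0.68 to -0.15, adjusted p = 0.233). Arm and drug cannot be told apart.

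The intervals of the other members were wide. TAP1 differed by -0.49 (SE 0.25, 95% interval -1.06 to 0.09, adjusted p = 0.409) and B2M by -0.35 (SE 0.26, 95% interval -0.95 to 0.25, adjusted p = 0.557). TAPBP differed by -0.31 (SE 0.30, 95% interval -1.003 to 0.39, adjusted p = 0.659). HLA-C differed by -0.24 (interval -0.68 to 0.20) and HLA-B by -0.22 (interval -0.86 to 0.41). HLA-E differed by -0.01 (interval -0.42 to 0.41), HLA-F by 0.01 (interval -0.60 to 0.63) and TAP2 by 0.02 (interval -0.32 to 0.35). Summed over HLA-B, HLA-C, HLA-E and HLA-F, libraries ran from 1242 to 2469 TPM in vemurafenib clones and from 1457 to 2937 TPM in dabrafenib/trametinib clones, overlapping widely. The difference of the mean log2 sums was -0.21, from 10.86 in vemurafenib clones and 11.06 in dabrafenib/trametinib clones (two-sided exact permutation test over 35 arrangements, p = 0.429, where the smallest possible p is 0.0286).

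**Figure D4:**
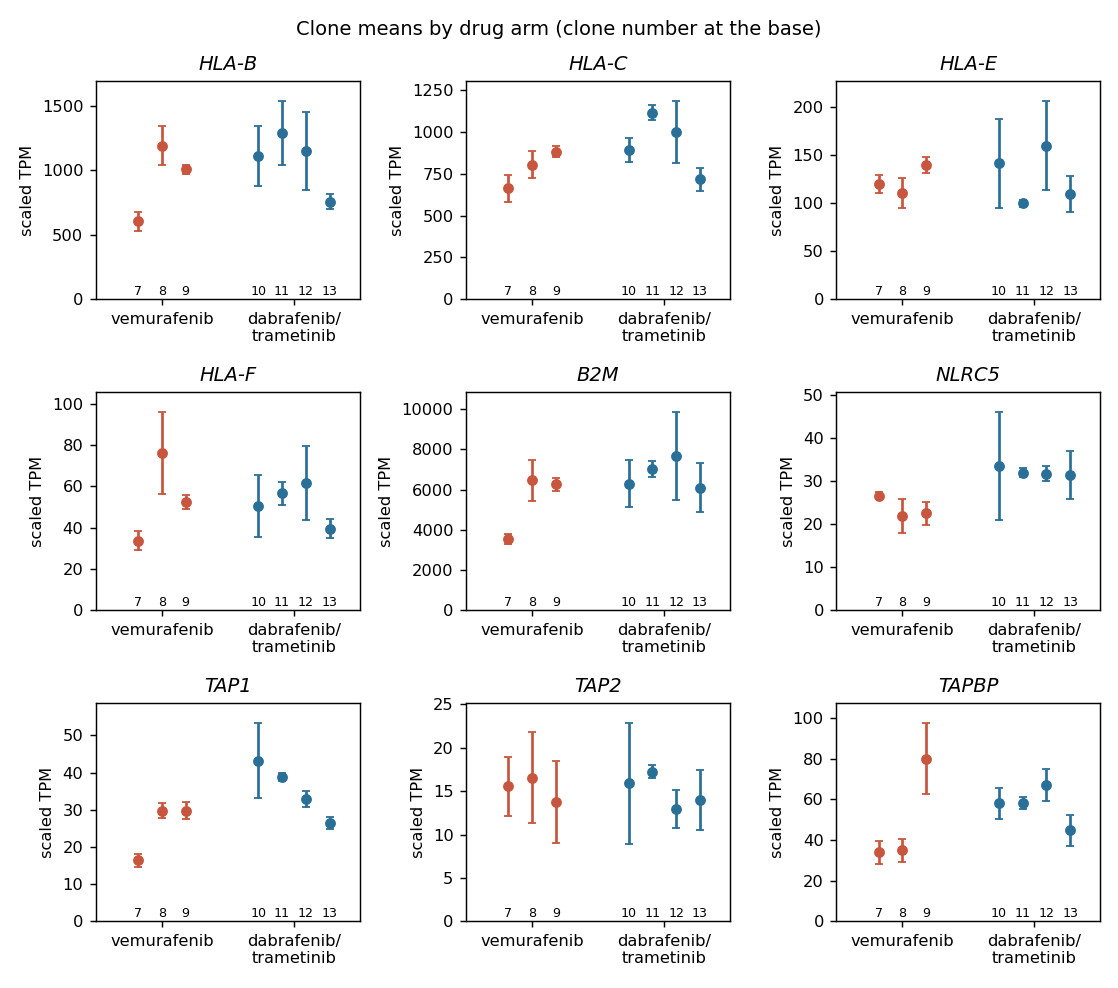
Mean scaled TPM of each clone by drug arm (linear axis from 0), vemurafenib clones left and dabrafenib/trametinib clones right, with bars of 1 SD between libraries (n = 3, or 2 for clone 11). The clone means of the arms overlap for every gene but NLRC5, where the vemurafenib clones average 21.9 to 26.5 TPM and the others 31.4 to 33.5 TPM. Clone means did not overlap in 14.3% of genes tested. Single NLRC5 libraries do overlap, at 18.2 to 27.3 TPM in vemurafenib clones and 20.7 to 45.6 TPM in the others.

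Genes that work upstream and downstream of these members were read from lists of antigen processing. Each count below stands beside the 10.9% of all genes tested that were called higher and the 7.91% called lower. Of 6 subunits of the immunoproteasome, which replaces catalytic subunits of the standard proteasome after interferon, and of its activator, 4 were called higher in the mean of the clones and 0 lower. PSMB9 had clone means of 60.1 to 96.8 TPM, against 10.0 ± 0.755 TPM in untreated cells (SD, n = 3; log2 fold change of 2.83 with SE 0.14, adjusted p = 2.42e-12). PSMB8, PSME2 and PSME1 followed at 1.39, 1.39 and 1.34 on the log2 scale, and these 4 were called in all 7 clones, as were 4.87% of genes tested. PSMB10, at 0.94, was called in 2 clones. PSME3, a subunit of the nuclear proteasome activator, was not called at -0.57, since it passed the adjusted p of limma (0.000455) but not the fold minimum. It had 31.8 to 53.6 TPM in clone libraries, all 20 of them below the 56.0 to 68.0 TPM of untreated libraries. Of the 3 standard subunits that the immunoproteasome replaces, PSMB5, PSMB6 and PSMB7, 0 were called by limma. All 3 passed the adjusted p but not the fold minimum, with log2 fold changes of 0.55, 0.44 and -0.52. PSMB9 stood at 0.215 to 0.417 times PSMB6 in clone libraries, against 0.0519 to 0.0555 times in untreated libraries, so the standard subunit stayed the more abundant in all 23.

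Of 6 chaperones and partners of peptide loading and export, 3 were called higher and 0 lower. CALR, a lectin chaperone of the loading complex, had clone means of 875 to 1701 TPM, against 377 ± 22.5 TPM in untreated cells (SD, n = 3; log2 fold change of 1.76 with SE 0.10, adjusted p = 8.17e-12). TAPBPL, a tapasin relative that edits peptides, had clone means of 19.1 to 31.7 TPM, against 7.04 ± 0.644 TPM in untreated cells (SD, n = 3; log2 fold change of 1.69 with SE 0.11, adjusted p = 1.76e-10). PDIA3, the oxidoreductase bound to tapasin, was called at 1.07 and singly in 4 clones. Of the 2 trimming peptidases, 0 were called by limma. Both passed the adjusted p but not the fold minimum, with ERAP1 at 0.87 and ERAP2 at 0.68. ERAP1 was called singly in 4 clones. TAPBPL was thus called in all 7 clones and TAPBP in 1.

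Of 8 RFX, CREB, ATF and NF-Y genes, whose products NLRC5 works with, 0 were called by limma, a count near the share called over all genes tested. Of these, 3 passed the adjusted p but not the fold minimum: NFYB at 0.68, NFYC at -0.76 and RFXAP at -0.26. Of 12 genes of upstream interferon and NF-kappa-B signaling, 3 were called higher and 1 lower. IRF1, a transcription factor that drives class I genes, had clone means of 21.4 to 97.3 TPM, against 3.67 ± 0.682 TPM in untreated cells (SD, n = 3; log2 fold change of 3.52 with SE 0.18, adjusted p = 2.02e-12), highest in clone 10 and lowest in clone 7. TAP1 was highest and lowest in the same clones, and a link between these genes was not tested. Clone 10 also had the highest mean TPM of the clones for NLRC5 and STAT2. For NLRC5 the clones did not pass the F test, and clone 11 was level with clone 10 on the log2 scale. Of the chaperone list, CANX, TAPBPL, UGGT1 and SEC61A1 were highest in clone 10 too. IRF9, a DNA-binding factor of the type I interferon response, was called in all 7 clones, at 2.65 in their mean, and its partner STAT2 was called at 1.02 and singly in 5 clones. JAK2, a kinase of the interferon-gamma receptor, was lower in all 7 clones, at 3.05 to 4.63 TPM, against 12.0 ± 2.56 TPM in untreated cells (SD, n = 3; log2 fold change of -1.51 with SE 0.17, adjusted p = 2.46e-07). Others of this list passed the adjusted p but not the fold minimum, in both directions. They were IFNGR1 at 0.96, JAK1 at 0.79, NFKB1 at 0.33, IFNAR2 at -0.21 and IFNGR2 at -0.41. Singly, IFNGR1 was called higher in 3 clones and JAK1 in 1.

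Of 4 polycomb genes, which can silence class I genes in tumor cells, 0 were called by limma. Of these 1, SUZ12 at -0.68, passed the adjusted p but not the fold minimum. Of 4 tested genes of class I surface turnover 0 were called. In this list 3 passed the adjusted p but not the fold minimum, with TMEM127 at 0.56, SPPL3 at -0.38 and WWP2 at -0.38. Of 12 tested other class I loci and class I-like chains, 4 were called higher and 0 lower. They included the pseudogene HLA-H at 2.30, the antibody receptor chain FCGRT at 1.49 and the iron regulator HFE at 1.36. FCGRT and HFE need B2M for their surface form. The medians of the log2 fold changes were 1.36 for the immunoproteasome list, 0.78 for the chaperones, -0.20 for the partners of NLRC5 and 0.24 for the upstream list, beside 2.15 for the members and -0.01 for all genes tested.

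**Figure D5:**
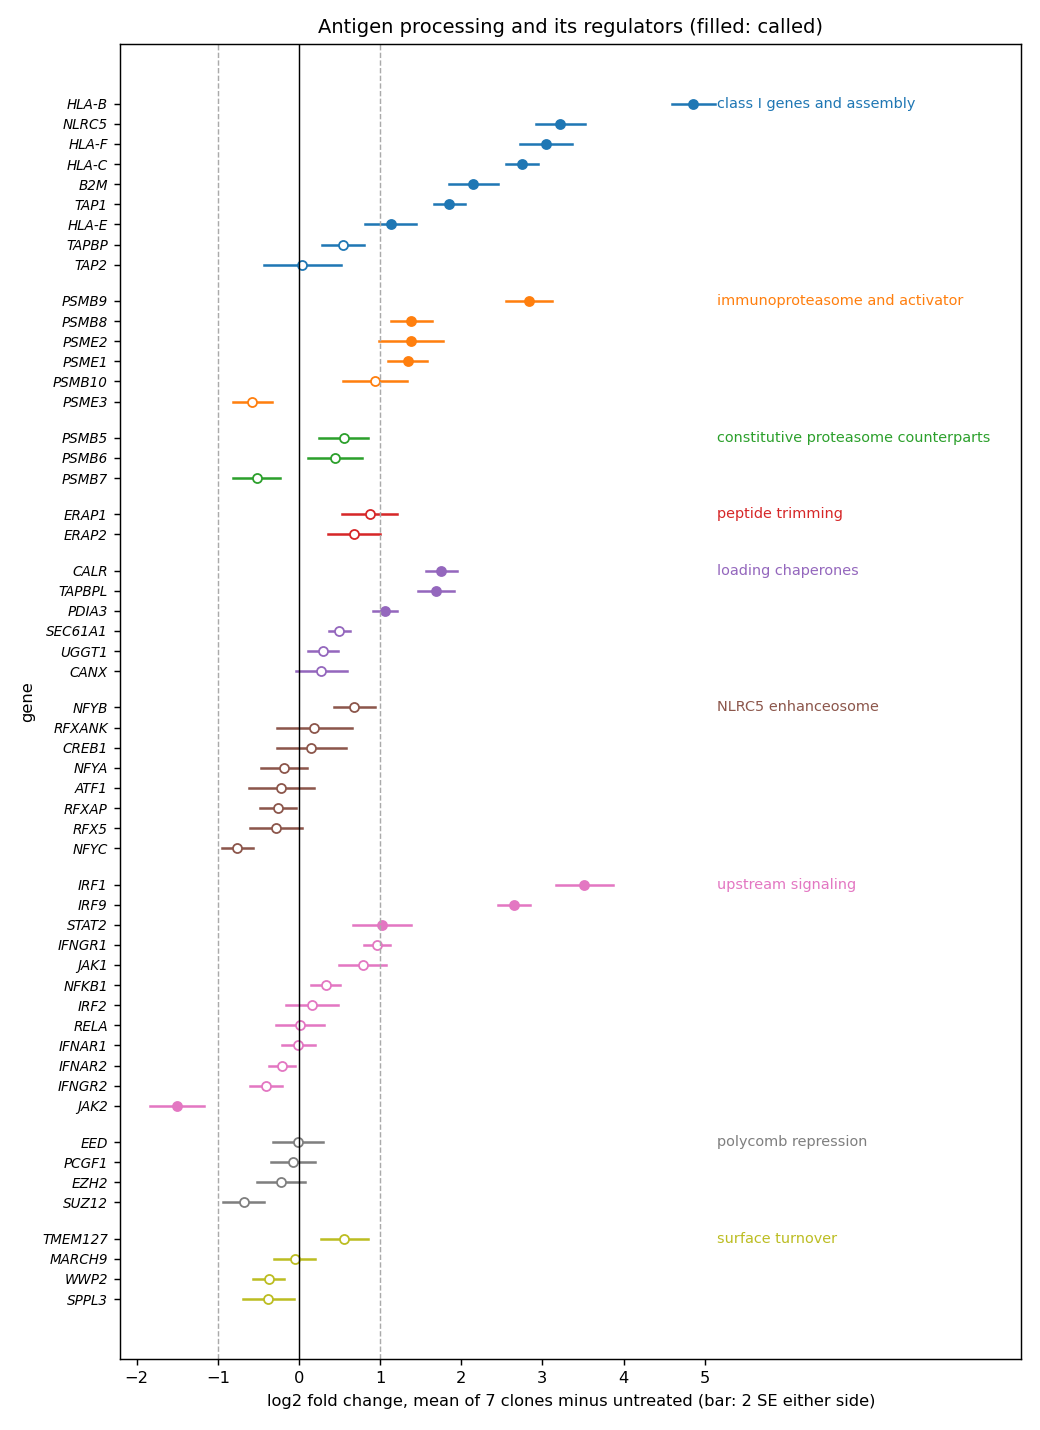
Log2 fold change of the mean of 7 clones minus untreated cells for the 9 genes and 8 lists of antigen processing and its regulation, with bars of 2 SE either side; filled points are called. HLA-B, IRF1, NLRC5 and HLA-F lie farthest to the right, and JAK2, at -1.51, is the only called gene on the left.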

How the data were processed

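RNA was measured in 23 libraries of 8 groups. The authors deposited 1 value per gene and library, read here as TPM because every column sums to 1000000; kallisto and hg19 are named, without a version, in the submitters' processing notes, and neither the annotation nor the summing to genes is stated there. As TPM carries no read number, depth is unknown and the spread between libraries is the error. Columns were matched to samples by the names in the labels.

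From the deposited TPM, a trimmed mean of log ratios (30% of ratios and 5% of levels trimmed, over 10822 genes with at least 1 TPM everywhere) gave scaling factors of 0.743 to 1.14 by which values were divided. Genes with at least 1 TPM in at least 2 libraries were tested as log2(scaled TPM + 1), a scale that understates the change of low genes. limma 3.58.1 (R 4.3.3; lmFit, eBayes with trend) fitted 8 groups together; the arms were fitted on 7 clone means. All adjusted p-values are Benjamini-Hochberg over the 15657 genes tested. The labels call the replicates biological without saying what separated them, so p-values may measure technical spread.

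The members and the lists were chosen with earlier results of these data known. All members are named, and in each list the called genes, up to 4 by size; some genes of these lists are not reported here, and others named with their values were chosen after these were seen. Likeness was Pearson r over clone means among genes that averaged 2 or more on the log2 scale. The alternatives were values as deposited, median-of-ratios scaling, a pseudocount of 0.1, no filter, a replicate block and each library or clone left out.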

Additional observations from a re-analysis of the deposited data

Results flagged for a closer look

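For 5 members the clones differed in their change against the same untreated libraries, by the F test across clones. The range of log2 clone means was 1.33 for TAP1, between clone 10 and clone 7. It was 1.20 for TAPBP, between clone 9 and clone 7. It was 1.13 for HLA-F, between clone 8 and clone 7, 1.09 for HLA-B, between clone 11 and clone 7, and 1.08 for B2M, between clone 12 and clone 7. Clone 7 was the lower end in all 5, with libraries at 16.0, 18.2 and 14.9 TPM for TAP1 and 3379.8, 3831 and 3412 TPM for B2M. It averaged 34.0 ± 5.78 TPM for TAPBP, 33.8 ± 4.44 TPM for HLA-F and 602 ± 71.5 TPM for HLA-B (SD, n = 3 each). TAPBP was the only 1 of the 5 still called when clone 7 was not used. TAP1, HLA-B and HLA-F then still passed the adjusted p of the F test but not the range, and B2M passed neither.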

How the results depend on the processing

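The count of 7 members called higher in the mean of the clones was the same under every alternative run, as was the count of 0 between the drug arms. Of 63 pairs of member and clone, 46 to 51 were called under all alternatives, 51 with the values as deposited. Taking the values as deposited put the median log2 fold change over all tested genes at 0.14, where scaling put it at -0.01, gave 2006 genes higher and 973 lower over all genes, where the scaled values gave 1700 and 1239, and called 14 in place of 7 clone pairs; the cause was not tested. Leaving out 1 library gave 6 to 10 clone pairs and 4 to 5 members that differed among clones, and 1 member with clone 7 not used.

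Signs turned only for values that were not called. With the values as deposited they were TAP2 in clone 9 (0.0412), clone 12 (0.0566) and clone 13 (0.14), TAPBP in clone 7 (0.0253) and clone 8 (0.0203), and, between arms, HLA-F (-0.15) and TAP2 (-0.13). With median-of-ratios scaling they were TAPBP in clone 8 (0.0057) and HLA-E between arms (0.0057). With a library or clone left out, TAP2 ran from -0.10 to 0.13 in the mean of the clones, -0.0444 to 0.26 in clone 7, -0.0380 to 0.42 in clone 8, -0.30 to 0.19 in clone 9, -0.20 to 0.46 in clone 10, and -0.23 to 0.0661 in clone 13. TAPBP ran from -0.18 to 0.0365 in clone 7 and -0.11 to 0.12 in clone 8. Between arms HLA-B ran from -0.43 to 0.0642, HLA-E from -0.11 to 0.10, HLA-F from -0.26 to 0.31 and TAP2 from -0.0367 to 0.0970.

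Samples with the same replicate number did not deviate together (median r 0.014 over 77 pairs, -0.623 to 0.418), so the numbers were not taken to pair samples. A fit with the replicate number as a block called the same counts of 7 members in the mean of the clones, 47 in single clones, 5 among clones and 15 list genes, and called 8 clone pairs in place of 7. Depth is unknown, so no limit on low values such as NLRC5 in untreated cells can be given.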
